A study of Mus musculus with 4 samples.

Results

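Serpina3f, Serpina3g, Serpina3n and Serpina1b are 4 genes of the Serpina cluster on mouse chromosome 12. They were taken by symbol from the 32285 genes of a spatial transcriptome (10x Genomics Visium) of 4 MC38 tumor sections, in which 24 gene symbols begin with Serpina. The genes were chosen by their difference between the host strains in these same sections, so the strain values below are a description without a test. The MC38 line derives from a colon carcinoma of a C57BL/6 mouse, and its cells had been injected subcutaneously into female F1 hosts, 8 to 12 weeks old. The CC075F1 hosts (C57BL/6J x CC075/UncJ) belonged to a strain that the study classes as responding to anti-PD-1, and the CC080F1 hosts (C57BL/6J x CC080/TauUncJ) to one that it classes as non-responding. Both groups received isotype control antibody alone, at 200 µg, once tumors measured 75 to 110 mm3, and tumors were taken 48 hours afterwards, with 2 tumors, 1 section each, per strain. Every host cell thus carried 1 C57BL/6J set of chromosomes and 1 set from its Collaborative Cross parent (a panel of recombinant inbred strains), whereas the injected tumor cells carried C57BL/6 sequence alone.

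Serpins are protease inhibitors that trap their target in a covalent complex after it cleaves an exposed loop. Serpina3g is an intracellular serpin known to inhibit cysteine cathepsins such as cathepsin B, and it has been described in activated T cells and myeloid cells. Serpina3f is its neighbour and close relative in a stretch of Serpina3 copies that arose in rodents, where the human genome holds SERPINA3 alone. Serpina3n encodes a secreted acute phase protein that can inhibit granzyme B. Serpina1b is a copy of the gene for alpha-1-antitrypsin, the elastase inhibitor that hepatocytes release into blood. Interferon gamma acts chiefly through GAS elements (TTCNNNGAA), whereas type I interferon acts chiefly through ISRE elements.

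On GRCm38, Serpina3f (ENSMUSG00000066363) lay at chr12:104214544-104221129, Serpina3g (ENSMUSG00000041481) at chr12:104236245-104241939 and Serpina3n (ENSMUSG00000021091) at chr12:104406729-104414329, all on the plus strand. Serpina1b (ENSMUSG00000071178) lay at chr12:103728156-103830373 on the minus strand, and in this annotation it spanned Serpina1d. The 250 bases upstream of the RefSeq start (GRCm38.p6) of Serpina3f (chr12:104214294-104214543) and Serpina3g (chr12:104235897-104236146) are shown because each held a match to the GAS letters, which is given in capitals.
Serpina3f: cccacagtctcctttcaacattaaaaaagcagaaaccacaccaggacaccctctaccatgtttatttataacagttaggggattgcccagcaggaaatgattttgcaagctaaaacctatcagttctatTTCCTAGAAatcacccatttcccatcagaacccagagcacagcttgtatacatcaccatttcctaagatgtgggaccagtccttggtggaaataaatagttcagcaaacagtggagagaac
Serpina3g: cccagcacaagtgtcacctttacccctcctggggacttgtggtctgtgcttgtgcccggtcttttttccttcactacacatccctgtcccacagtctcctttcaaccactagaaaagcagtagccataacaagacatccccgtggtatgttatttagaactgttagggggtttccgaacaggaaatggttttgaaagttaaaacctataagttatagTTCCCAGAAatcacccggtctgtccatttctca
The match stood at positions -121 to -113 from the start of Serpina3f and at -33 to -25 from that of Serpina3g. From another RefSeq start of Serpina3f it stood at -210 to -202. The GENCODE start of Serpina3g, given above, lies downstream of the RefSeq start used, so these positions depend on the start chosen. The surrounding 33 bases could be placed beside the same stretch of other Serpina3 genes, which shows where the letters part. The stretches are from chr12:104214411-104214443 for Serpina3f, chr12:104236102-104236134 for Serpina3g, chr12:104263008-104263040 for Serpina3i, chr12:104406573-104406605 for Serpina3n and, on the minus strand, chr12:104153972-104154004 for Serpina3c.
Serpina3f, 33 bases: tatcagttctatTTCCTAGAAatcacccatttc
Serpina3g, 33 bases: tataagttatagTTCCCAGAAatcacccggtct
Serpina3i, 33 bases: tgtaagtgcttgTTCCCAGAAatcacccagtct
Serpina3n, 33 bases: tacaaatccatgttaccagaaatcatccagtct
Serpina3c, 33 bases: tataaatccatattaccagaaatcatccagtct
Serpina3g shared 25 of the 33 bases with Serpina3f, Serpina3i 24, Serpina3c 21 and Serpina3n 20, and the GAS letters stood in Serpina3f, Serpina3g and Serpina3i and not in the stretches of Serpina3n and Serpina3c. The stretches placed for Serpina3b, Serpina3a and Serpina3j, not shown, shared 19, 17 and 15 bases and held no GAS letters. Those of Serpina3a and Serpina3j stood at -79 to -47 and -247 to -215. With so few shared bases they are not shown to be the corresponding stretch. Outside the Serpina3 genes, the promoter windows of Serpina1f and Serpina11 also held a match. Over all 300-base promoter windows of the RefSeq table (250 bases before and 50 after a start), 8.30% of 32851 held TTCNNNGAA, which reads alike on both strands. The ISRE core GAAANNGAA, searched on both strands, was found in 8.56% of windows. It was present in Serpina3f at -127 to -119, overlapping its GAS letters, and not in the windows of Serpina3g, Serpina3n or Serpina1b. A match to letters is a description and was not tied to binding of any factor in these data.

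The sections held 2710 to 3276 spots under tissue and 82594649 to 146460975 UMIs (unique molecular identifiers, each marking 1 captured RNA molecule), with a median of 31139 to 41740 UMIs per spot. Levels are given as CPM, the UMIs of a gene divided by those of its section and scaled to 1000000, and the floor used for a count of 0, 3 UMIs (about its one-sided 95% limit), was 0.0205 to 0.0363 CPM. Skin, muscle or fat markers reached 0.5% of UMIs in 67 spots of CC075F1 replicate 2 and 2 spots of CC080F1 replicate 2. The protocol places sections of 4 tissue blocks on a Visium slide without naming the sections on it, and no library batch is named, so a batch that follows the strain and the strain cannot be told apart.

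Serpina3g was the member with reads in most spots and stood higher in both CC075F1 sections. Its level was 45.5 CPM in CC075F1 replicate 1, 32.1 CPM in CC075F1 replicate 2, 14.4 CPM in CC080F1 replicate 1 and 18.1 CPM in CC080F1 replicate 2, from 3758, 4700, 1352 and 2034 UMIs. The strains did not overlap, with means of 38.8 ± 9.48 and 16.2 ± 2.55 CPM (SD, n = 2 each), a ratio of 2.39. In the summed sections, the edgeR log2 fold change was 1.54 (SE 0.21), beside 14 of 15572 genes called between the strains at this design (0.0899%). That count depended on the setting, from 40 by library size alone to 480 without the filter on low counts, with 194 by DESeq2, 287 with the replicate block and 11 to 207 on leaving out 1 section. At least 1 UMI of Serpina3g was found in 60.0% of spots of CC075F1 replicate 1 (exact 95% interval 58.1 to 61.8) and 55.2% of CC075F1 replicate 2 (53.4 to 56.9). In CC080F1 the shares were 31.2% (29.5 to 32.9) and 36.0% (34.4 to 37.7). After each spot of 10000 UMIs or more was thinned to 10000, the shares were 32.5, 24.95, 12.7 and 15.5% in the same order, so that CC075F1 stayed above CC080F1 at equal depth. The intervals cover counting error alone, and in spots, which hold several cells, fewer cells of a type and less RNA per cell cannot be told apart.

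Serpina3f showed the same order of strains at a sparser count. Its level was 7.08 and 4.76 CPM in CC075F1 replicates 1 and 2 and 1.304 and 2.75 CPM in CC080F1 replicates 1 and 2, from 585, 697, 122 and 310 UMIs. The sections of CC075F1 were the higher pair, with means of 5.92 ± 1.64 and 2.03 ± 1.02 CPM (SD, n = 2 each) and a ratio of 2.92. The log2 fold change was 1.81 (SE 0.42). Spots with Serpina3f made up 17.5% and 15.5% of the CC075F1 sections and 4.16% and 7.84% of the CC080F1 sections, and no spot held more than 6 of its UMIs, against up to 23 of Serpina3g. Of the UMIs of both genes together, Serpina3f gave 13.5, 12.9, 8.28 and 13.2% in the 4 sections, so the share was lowest in CC080F1 replicate 1. In thinned spots of every section, Serpina3g was found more often beside Serpina3f than elsewhere: 44.9, 47.8, 20 and 32.5% of the spots with Serpina3f also held Serpina3g, against 31.7, 23.9, 12.6 and 15.04% of the spots without it.

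**Figure D1:**
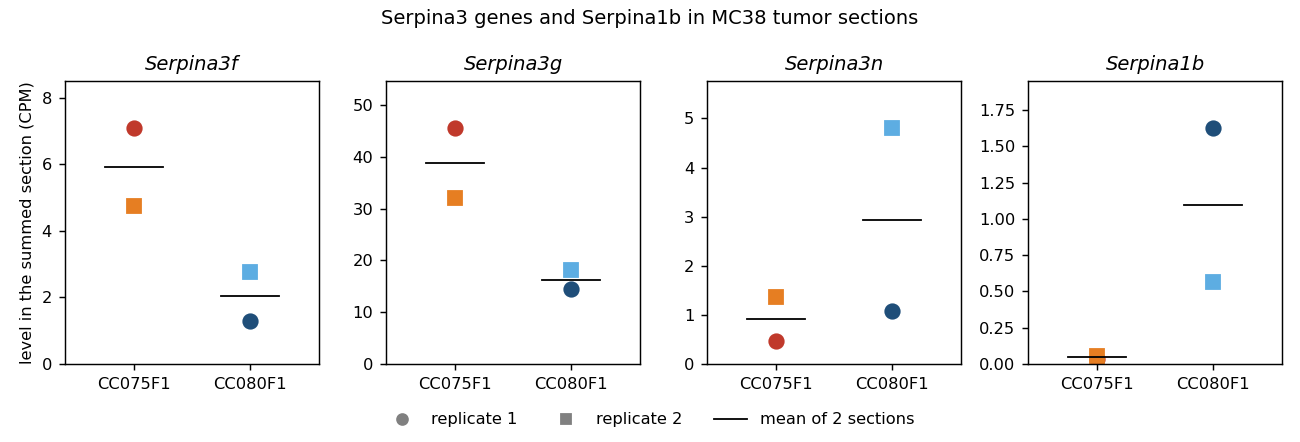
Level of Serpina3f, Serpina3g, Serpina3n and Serpina1b in the summed UMIs of each section (y axis, CPM, a separate scale from 0 for each gene) by host strain (x axis), with circles for replicate 1, squares for replicate 2 and a line for the mean of 2 sections. Serpina3f and Serpina3g are higher in both CC075F1 sections, Serpina1b is higher in both CC080F1 sections, and the strains overlap for Serpina3n, whose highest section is CC080F1 replicate 2 at 4.80 CPM.

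Serpina3n did not follow its neighbours. Its level was 0.46 and 1.37 CPM in CC075F1 and 1.07 and 4.80 CPM in CC080F1, from 38, 201, 100 and 541 UMIs. The strains overlapped, and the mean of CC080F1, 2.94 ± 2.64 CPM (SD, n = 2), was set by its replicate 2. The log2 fold change was -1.25 (SE 0.86), and without CC080F1 replicate 2 it turned to 0.32. In the 67 skin, muscle or fat spots of CC075F1 replicate 2, Serpina3n stood at 34.9 CPM, with 57 of the 201 UMIs of that section.

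Serpina1b was nearly absent from one strain. It had 3 and 8 UMIs in the CC075F1 sections (0.036 and 0.055 CPM) and 152 and 64 UMIs in the CC080F1 sections (1.62 and 0.57 CPM). The groups did not overlap. Over the pooled UMIs, 11 in CC075F1 and 216 in CC080F1, the ratio of CC080F1 to CC075F1 was 21.8, with a counting interval of 11.9 to 44.3, and the log2 fold change was -4.11 (SE 0.72). Serpina1d, the copy of alpha-1-antitrypsin that Serpina1b spans, had 122, 245, 170 and 442 UMIs, a pooled ratio of 1.85 (counting interval 1.62 to 2.11). Both intervals cover counting error alone and not the spread between sections, over which Serpina1d had a log2 fold change of -0.53 (SE 0.49). Of the UMIs of the pair, Serpina1b gave 2.40 and 3.16% in CC075F1 and 47.2 and 12.6% in CC080F1, so the share of the copies differed between the strains and also between the CC080F1 sections. The reference is C57BL/6J sequence, and 3.65% of the 90-base stretches in the last 500 bases of the Serpina1b transcript also occurred in Serpina1d. A Collaborative Cross allele that differs from the reference could be assigned to another copy, so the split of reads between the copies is uncertain. No such stretch of Serpina3f, Serpina3g or Serpina3n occurred in another Serpina gene. Of the stretches of the pseudogene Serpina3e-ps, however, 8.52% occurred in a Serpina3g or Serpina3n transcript. The check used reference sequence alone, so it does not cover Collaborative Cross alleles of these genes.

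Few other Serpina genes could be measured. Of the 20 other Serpina genes, 7 had 0 UMIs in all sections, 7 had at most 3 in any section, and 3 passed the filter on low counts. Under edgeR's quasi-likelihood test with Benjamini-Hochberg adjustment none of the 3 was called: Serpina3i (log2 fold change 1.13, SE 0.67, adjusted p = 0.830), Serpina12 (0.53, SE 0.63, adjusted p = 0.863) and Serpina1d (-0.53, SE 0.49, adjusted p = 0.838). Serpina3i, which carries the GAS letters, had 17, 51, 23 and 11 UMIs. Of 15 serpins outside the cluster that were tested none was called by edgeR either, 3 had an unadjusted p under 0.05, and DESeq2 called 1. Of the 8 markers of hepatocytes, the main source of alpha-1-antitrypsin, Ttr and Fga had 0 UMIs in every section and Alb 1 UMI in CC080F1 replicate 2 alone. Ahsg, Fgb and Apoa1 had at most 6 UMIs in a section, while Apoa2 had 455 to 830 and Trf, which other cells express too, 1706 to 3362, and the part of any source of Serpina1b was not tested.

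The border was taken as the spots within 3 grid steps of a position off tissue. By this border, Serpina3g and Serpina3f stood higher than in the interior in both CC075F1 sections and lower in both CC080F1 sections. The level of Serpina3g at the border was 1.65 and 1.76 times that of the interior in CC075F1 replicates 1 and 2, and 0.694 and 0.899 times in CC080F1. Serpina3f had border to interior ratios of 1.51 and 1.35 in CC075F1, and 0.508 and 0.947 in the CC080F1 sections. The strains did not overlap for either gene, and the two-sided exact permutation p was 0.33, the smallest that 2 against 2 sections can give. With a border of 5 steps, CC080F1 replicate 2 stood above 1 for both genes, at 1.09 for Serpina3g and 1.17 for Serpina3f. With 3 steps and spots thinned to equal depth, that section stood at 1.03 for Serpina3f, so the order depends on the setting. Serpina3n stood higher at the border in every section, by 5.73, 28.7, 2.00 and 7.39 times, and the exact p between the strains was 0.667.

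**Figure D2:**
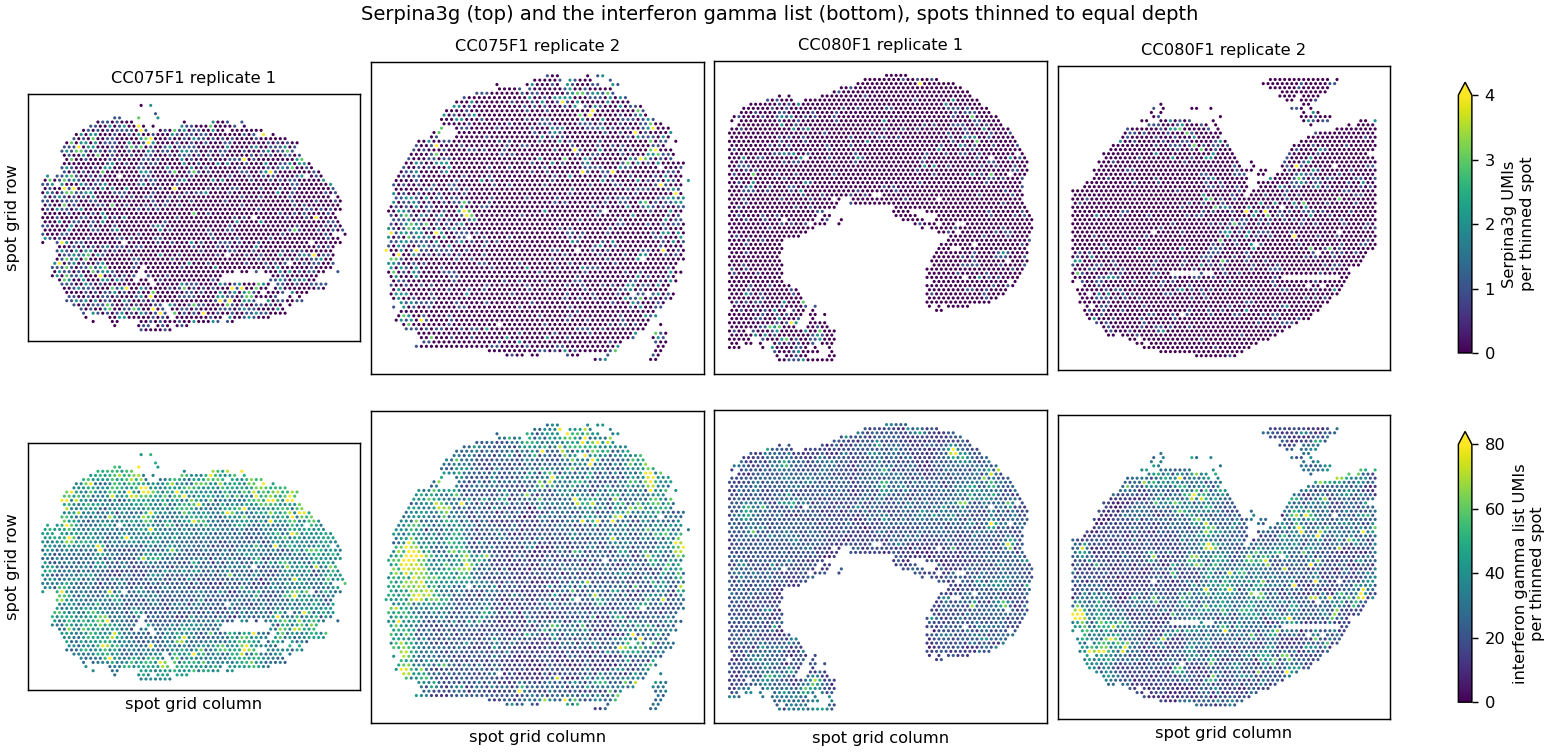
Each point is a spot of 10000 UMIs or more, thinned to 10000, at its place on the spot grid (x axis, grid column; y axis, grid row), for the 4 sections from left to right. Colour gives the UMIs of Serpina3g per spot in the upper row, from 0 to 4 or more, and those of the interferon gamma list in the lower row, from 0 to 80 or more. Serpina3g is found in 32.5% and 24.95% of the CC075F1 spots and in 12.7% and 15.5% of the CC080F1 spots.

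The next question was whether the members follow interferon-induced genes or T cell genes across the spots of a section. The interferon gamma list held 31 genes of the table (Cxcl9, Gbp2, Irf1, Tap1 and others), none of them a serpin, and the T cell list held 20 (Cd3e, Cd8a, Trac, Lck and others). In the thinned spots, UMIs were summed over the upper and over the lower tertile of spots by the interferon gamma list in each section. In the upper tertile, Serpina3g stood at 78.7, 75.1, 28.4 and 38.3 CPM in CC075F1 replicates 1 and 2 and CC080F1 replicates 1 and 2, against 23.1, 7.84, 6.04 and 6.17 CPM in the lower. The level was higher in the upper tertile of every section, by 3.41 to 9.58 times. With the section as a block, edgeR's quasi-likelihood test gave a log2 fold change of 2.28 (SE 0.16, Benjamini-Hochberg adjusted p = 2.8e-05). Of all 12216 genes tested, 1361 were called in this comparison (11.1%), 748 of them higher (6.12% of all).

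Serpina3f rose between the same classes of spots from 2.24 to 11.8, 1.98 to 9.36, 0.878 to 2.41 and 0.202 to 6.77 CPM. The last low value rests on 2 UMIs. The log2 fold change was 2.36 (SE 0.32), with an edgeR Benjamini-Hochberg adjusted p of 0.0012. Serpina3n rose as well, by 2.31 (SE 0.41, adjusted p = 0.0064), on 0, 1, 5 and 24 UMIs in the low class and 9, 41, 15 and 92 in the high class. Serpina1b did not pass the filter on low counts. For scale, Cxcl9 and Gbp2, which are in the list that defines the classes, had log2 fold changes of 2.51 and 1.46.

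Other cell markers moved with the interferon class. Genes called higher in the high class were 11 of 18 tested for T cells, 8 of 9 for endothelium, 5 of 10 for fibroblasts, 4 of 12 for macrophages and 5 of 5 for skeletal muscle. Summed over its list, endothelium ran from 74.5 to 229 CPM in the low class and from 217 to 269 CPM in the high class, T cells from 33.3 to 87.4 and from 48.0 to 168 CPM, and skeletal muscle from 2.73 to 33.8 and from 3.84 to 660 CPM. Without the skin, muscle and fat spots the log2 fold changes were 2.38 for Serpina3f, 2.26 for Serpina3g and 2.19 for Serpina3n. The part of the other cell types in the result was not tested. Of 11 other serpins tested, 5 rose: Serping1, the inhibitor of the complement protease C1 (log2 fold change 1.94), Serpine2 (1.27), Serpinb6b (1.08), Serpinb1a (0.87) and Serpinb9, the mouse inhibitor of granzyme B inside cells (0.34). Ctsb, which encodes cathepsin B, a target of Serpina3g, had 0.06 (SE 0.05, edgeR Benjamini-Hochberg adjusted p = 0.534). With classes from a type I interferon list the log2 fold changes were smaller, at 1.08, 0.89 and 0.82. That list summed to 385 to 683 CPM by section, against 2221 to 3577 CPM for the interferon gamma list. The type I list thus sorted spots on fewer UMIs, and the smaller values do not show which list the genes follow more closely.

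Serpina3f, Serpina3g and Serpina3n were also called higher in spots with a UMI of the T cell list, while Serpina1b did not pass the filter. Serpina3g stood at 54.7, 45.4, 18.2 and 24.2 CPM in the T cell positive spots and at 32.1, 21.9, 13.8 and 16.1 CPM in the others, and was higher in the positive spots of each section. The log2 fold change was 0.69 (SE 0.07), with an edgeR Benjamini-Hochberg adjusted p of 2.8e-06, in a comparison that called 591 of 12799 genes (4.62%), with 2.8% of all genes higher. Serpina3f rose from 4.15 to 7.90 and from 2.71 to 6.13 CPM in CC075F1 and from 1.96 to 4.45 CPM in CC080F1 replicate 2, but stood at 1.56 and 1.496 CPM in CC080F1 replicate 1. Its log2 fold change was 0.87 (SE 0.17, adjusted p = 0.0038 by edgeR's quasi-likelihood test), and without CC075F1 replicate 2 the adjusted p was 0.058. Serpina3n rose by 1.38 (SE 0.22, adjusted p = 0.0007), from 2.96 to 10.9 CPM in CC080F1 replicate 2, and without that section the adjusted p was 0.245. With DESeq2 neither gene passed the threshold (adjusted p = 0.115 for Serpina3f and 0.074 for Serpina3n), nor with classes from the cytotoxic and NK list (edgeR adjusted p = 0.296 and 0.151). In the same comparison 19 of 30 tested genes of the interferon gamma list were higher, so the classes of spots were not independent.

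Both classes were therefore entered in one fit, over the sums of the 4 combinations of interferon list above or below the section median and T cell list with or without a UMI. The interferon coefficient of Serpina3g was 1.64 (SE 0.09) and its T cell coefficient 0.45 (SE 0.09, edgeR Benjamini-Hochberg adjusted p = 0.0059). For Serpina3f they were 1.81 (SE 0.20) and 0.59 (SE 0.20, adjusted p = 0.156). The interferon coefficient was the larger by 1.19 (SE 0.14, adjusted p = 8.3e-07) in Serpina3g and by 1.22 (SE 0.31, adjusted p = 0.029) in Serpina3f. Serpina3n had 1.11 (SE 0.20, adjusted p = 0.0002) and 1.18 (SE 0.20, adjusted p = 0.0013), with a difference of -0.06 (SE 0.31, adjusted p = 0.986, 95% interval -0.67 to 0.55). Without CC075F1 replicate 1 the adjusted p of the Serpina3f difference was 0.212, and without CC080F1 replicate 2 it was 0.145. Without CC080F1 replicate 2 the T cell coefficients also passed no threshold, at an adjusted p of 0.057 for Serpina3g and 0.557 for Serpina3n. Of all genes, 17.4% were called for the interferon class, 1.4% for the T cell class and 1.99% for the difference.

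The lists did not carry equal information. A thinned spot held on average 36.7, 30.2, 22.7 and 27.2 UMIs of the interferon gamma list in the 4 sections, against 1.18, 1.18, 0.44 and 0.55 UMIs of the T cell list, beside which Serpina3f and Serpina3g were read. When the interferon list was thinned to the total of the T cell list in each section, the coefficients of Serpina3g were 0.58 for the interferon class and 0.66 for the T cell class, a difference of -0.08 (SE 0.09, edgeR Benjamini-Hochberg adjusted p = 0.941). Those of Serpina3f were 0.79 and 0.83, a difference of -0.04 (SE 0.24, adjusted p = 0.998). The larger interferon coefficient of both genes was therefore present with the interferon list in full and absent once the list totals were equal. Both genes were called for both classes in this fit, where 2.2% and 8.85% of 11996 genes were called. Within the thinned classes, T cell positive spots still held more UMIs of the full interferon list in every section. In CC075F1 replicate 2 the means were 25.7 against 21.4 in the low class and 36.9 against 28.9 in the high class. The T cell coefficients of this fit are therefore not at equal interferon level. Serpina3n had 0.42 (adjusted p = 0.331) and 1.37 in the same fit.

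**Figure D3:**
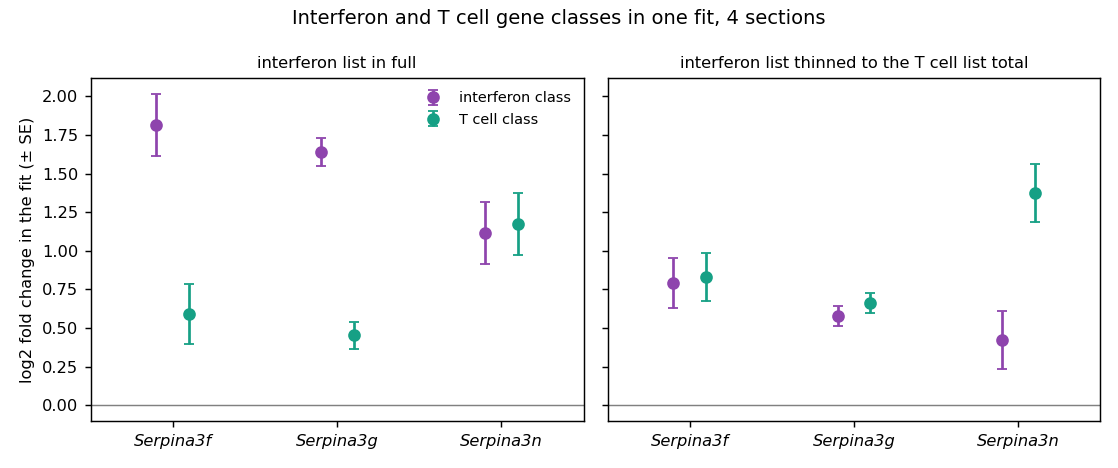
Log2 fold change with its SE (y axis) for Serpina3f, Serpina3g and Serpina3n (x axis) between spots above and below the median of the interferon gamma list (purple) and between spots with and without a T cell list UMI (green), in one fit over 4 sections. On the left, with the interferon list in full, Serpina3g has 1.64 and 0.45; on the right, with the interferon list thinned to the total of the T cell list, it has 0.58 and 0.66.

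Correlations across thinned spots were computed without classes. Pearson's r of log2(UMIs + 1) between Serpina3g and the interferon gamma list was 0.351, 0.451, 0.262 and 0.321 in the 4 sections, and between Serpina3g and the T cell list 0.154, 0.215, 0.057 and 0.112. For Serpina3f the values were 0.171, 0.171, 0.069 and 0.202 with the interferon list and 0.076, 0.086, 0.005 and 0.10 with the T cell list. In each section and for both genes the interferon list gave the higher value. The points are 2549 to 3174 spots of a section, which share a library and lie beside each other, and the counts are sparse, so these are descriptions. The mean over sections for Serpina3g was 0.346 with the interferon gamma list, 0.158 with endothelium, 0.152 with macrophages, 0.146 with the type I interferon list and 0.135 with T cells. With the interferon list thinned to the T cell total it was 0.138, next to 0.135 for T cells, and for Serpina3f it was 0.072, next to 0.067. When each spot was summed with its 6 neighbours, Serpina3g gave 0.586 with the full interferon list, 0.326 with the thinned one and 0.325 with T cells.

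**Figure D4:**
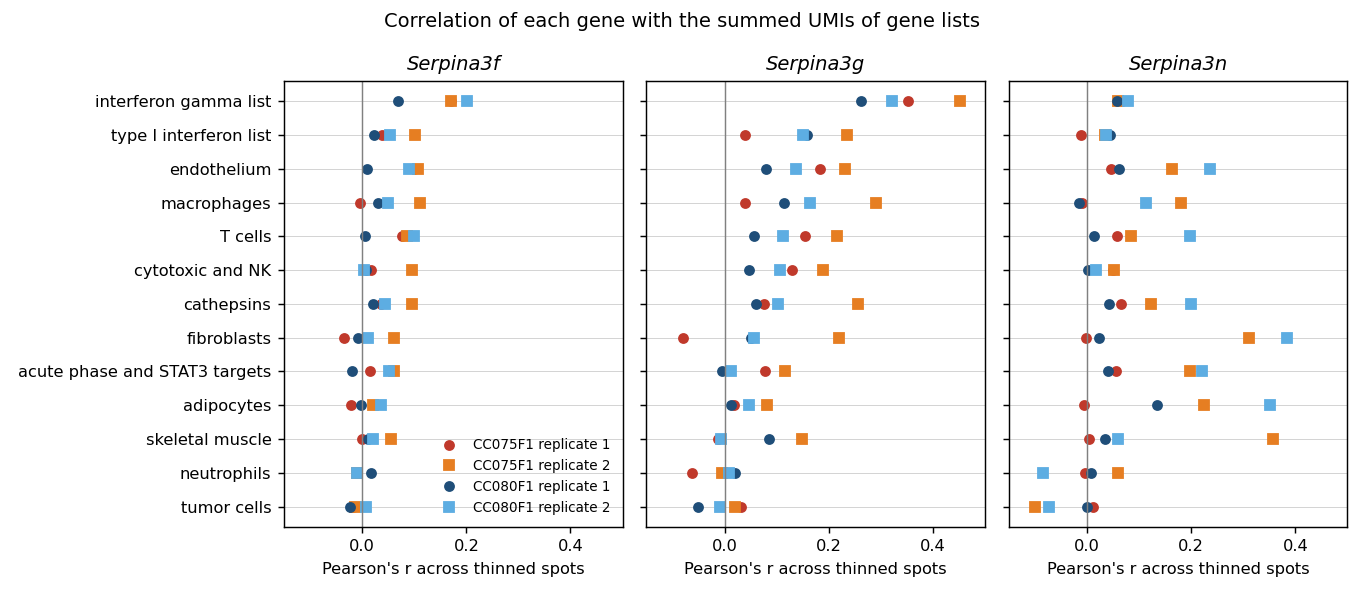
Pearson's r across thinned spots (x axis) of Serpina3f, Serpina3g and Serpina3n with the summed UMIs of 13 gene lists (y axis), with a point for each section. The interferon gamma list gives the highest value in every section for Serpina3f and Serpina3g, at 0.262 to 0.451 for Serpina3g, with the list in full, which holds far more UMIs than the T cell list. Thinned to the T cell total, its mean for Serpina3g is 0.138. Endothelium has 0.158, but its list was not thinned and sums to 125 to 241 CPM by section, against 42.3 to 116 CPM for T cells. Serpina3n reaches 0.384 with fibroblasts in CC080F1 replicate 2.

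Spots of the same interferon score were then set side by side across the strains. The score was the UMIs of the interferon gamma list per thinned spot. In spots with 45 or more, Serpina3g stood at 91.1 and 106 CPM in CC075F1 and 83.6 and 67.5 CPM in CC080F1, from 605, 480, 67 and 292 spots. In spots with 15 to 24 it stood at 17.3 and 10.4 CPM in CC075F1 and 9.93 and 8.30 CPM in CC080F1. Serpina3g was higher in each higher range of the score in every section, and the strains did not overlap in the 4 ranges from 15 upward. With spots thinned to 20000 UMIs instead, the strains overlapped for Serpina3g in the range 35 to 44, at a ratio of 1.14. The ratio of CC075F1 to CC080F1 was 1.301, 1.52, 1.58, 1.38 and 1.31 in the ranges 0 to 14, 15 to 24, 25 to 34, 35 to 44 and 45 or more, against 2.39 over whole sections. For Serpina3f the ratios were 3.24, 2.44, 1.33, 1.90 and 1.27, with an overlap in the highest range, where it had 13.2, 14.2, 7.46 and 14.0 CPM. The lowest range of CC075F1 replicate 1 held 32 spots, with 1 UMI of Serpina3f and 3 of Serpina3g. Whole sections also differed in the lists themselves: the T cell list summed to 116 and 98.5 CPM in CC075F1 and 42.3 and 52.1 CPM in CC080F1, and the interferon gamma list to 3577 and 2907 against 2221 and 2668 CPM. The part of these lists in the strain values was not tested.

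**Figure D5:**
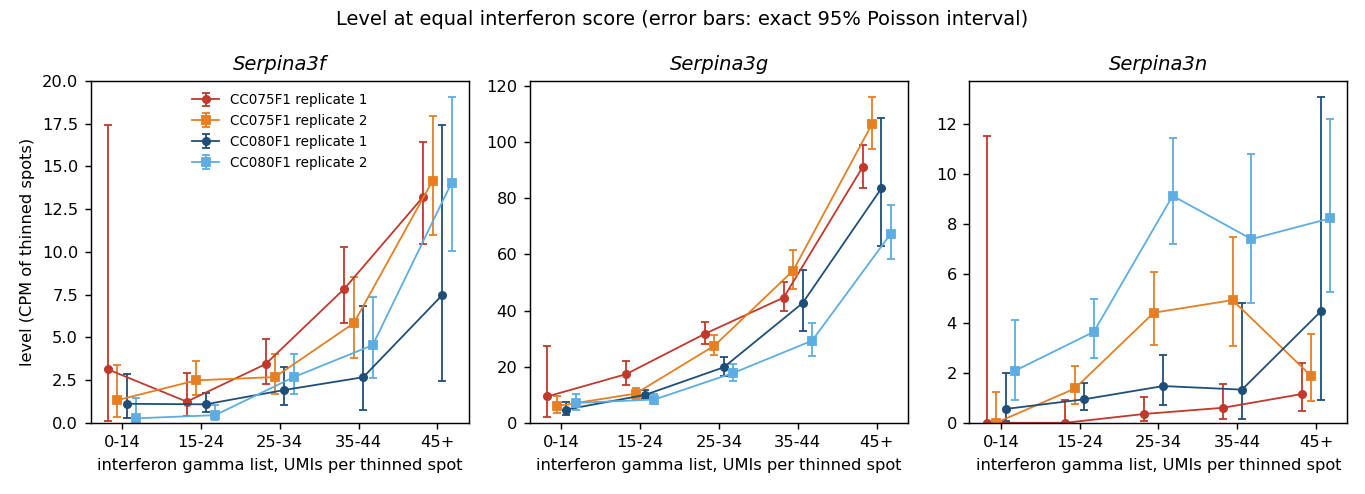
Level of each gene in thinned spots (y axis, CPM) by range of the interferon gamma list score (x axis, UMIs per thinned spot), with a line for each section and exact 95% Poisson intervals, which cover counting error alone. Serpina3g is higher in each higher range in every section and reaches 67.5 to 106 CPM at a score of 45 or more.

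The genes whose pattern across spots was most like each member were ranked by the mean of r over the 4 sections, among 9091 genes with at least 0.05 UMIs per thinned spot in each section. For Serpina3g the leading genes were Cxcl9 (0.303), a chemokine for CXCR3-bearing T cells, Iigp1 (0.235), an immunity-related GTPase, Cxcl10 (0.227), and the MHC class II genes H2-Ab1 (0.220) and Cd74 (0.212). For Serpina3f they were Cxcl9 (0.136), Cd74 (0.104), Gbp2 (0.102), Iigp1 (0.098) and H2-Ab1 (0.093). Of 23 interferon gamma list genes that could be compared, 20 were among the 100 genes most like Serpina3g and 18 among those most like Serpina3f. Of the T cell list 1 gene was abundant enough to be compared, so the ranking says little of T cell genes. Serpina3n had other leading genes: Col1a2 (0.249), Bgn (0.247), Col1a1 (0.223) and Postn (0.214), genes of fibroblast matrix, and the complement gene C3 (0.200). Of the 9 fibroblast list genes compared, 6 were among the 100 most like Serpina3n, as were 5 of the 8 endothelium list genes, and none of the 23 interferon gamma list genes was. Endothelium also gave 4 of 8 for Serpina3f and 1 of 8 for Serpina3g. Fibroblast list genes were 3 of 9 for Serpina3f and 4 of 9 for Serpina3g, so likeness to them was not particular to Serpina3n. Macrophage list genes were 3 of 12 for Serpina3f, 4 of 12 for Serpina3g and 0 of 12 for Serpina3n.

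The likeness of Serpina3n to stromal genes differed between sections. Its r with the fibroblast list was 0.312 in CC075F1 replicate 2 and 0.384 in CC080F1 replicate 2, but -0.002 and 0.023 in the other sections, where it had fewer UMIs. With adipocyte genes it was 0.225 and 0.351 in the same 2 sections, and with skeletal muscle genes 0.357 in CC075F1 replicate 2. Without the skin, muscle and fat spots the values of CC075F1 replicate 2 were 0.275 with fibroblasts, 0.145 with adipocytes and 0.309 with skeletal muscle. The r of Serpina3n with the interferon gamma list lay between 0.057 and 0.079 in the 4 sections.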

How the data were processed

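The deposited files are matrices of raw UMI counts, by gene and spot, which the authors made with Space Ranger (1.3.1 in the matrix headers) on mm10/GRCm38, limited to spots under tissue and not normalized. The submitters' notes also name Seurat 5.0.1, whose output was not used here. Section totals were 82594649 to 146460975 UMIs, and exact intervals at 95% cover counting error alone. Spots of 10000 UMIs or more were thinned to 10000 without replacement, which left out 53 to 205 spots per section. Gene positions came from GENCODE vM21 and promoters from RefSeq (19 of the 24 Serpina genes matched). UMIs were summed over spots of a section or class and fitted in edgeR 4.0.16 (R 4.3.3) by the quasi-likelihood test, with TMM, filterByExpr, the section as a block within sections, and Benjamini-Hochberg adjustment at 0.05 over all genes. DESeq2 1.42.0 was an alternative. Scripts ran in Python 3.11.15 (numpy 2.4.6, scipy 1.17.1, pandas 2.3.3). In the strain fit the p-values rest on the spread between 4 tumors. In the fits of a single class they rest on the spread of the class difference over the 4 tumors. In each fit edgeR moderates the spread of a gene with that of all genes, so SE and p do not reflect its own sections alone. The interferon class ratios of Serpina3g, 3.41 to 9.58 by section, can thus spread more than its SE shows. The fit of both classes took 4 sums from each tumor, so its p-values also rest on spread within tumors. On simulated counts for the comparison of interferon classes, 99% of 100 genes changed 2-fold were called over 12216 genes, and 11 of the 210 genes called were false. For the strain comparison 4% of 2-fold and 69% of 4-fold changes were called over 15572 genes. The changed genes were drawn from those expecting more UMIs than most low-class sums of Serpina3f and Serpina3n held. The spread was set by hand and not taken from the data, so recovery of such sparse genes was not tested.

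Members and gene lists were chosen with earlier results of these data known. Named genes were the members, other Serpina genes that passed the filter of the strain fit, other serpins past 0.05 in a fit, the 5 genes most like each Serpina3 member, and Cxcl9, Gbp2, Cd8a, Cd3e and Ctsb, with some items not reported here. Hepatocyte markers were named after their values were seen. The interferon and T cell lists that define a class are no result in it. Cd8a and Cd3e had log2 fold changes of 1.04 (adjusted p = 0.0072) and 0.82 (adjusted p = 0.139) between the interferon classes. In the same comparison, the genes called higher were 7 of 9 tested for cytotoxic and NK cells, 18 of 18 for the type I interferon list, 2 of 2 for adipocytes, 2 of 4 for dendritic cells, 4 of 10 for cathepsins, 1 of 10 for acute phase genes and 1 of 2 for hepatocytes. For neutrophils (6 tested), B cells (2), keratinocytes (1) and tumor cells (1) none was called higher.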

Additional observations from a re-analysis of the deposited data

Results flagged for a closer look

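The border to interior ratios of Serpina3f and Serpina3g lay on opposite sides of 1 in the strains. In CC075F1 replicates 1 and 2 Serpina3f had 1.51 and 1.35, whereas CC080F1 replicates 1 and 2 gave 0.508 and 0.947. Serpina3g had 1.65 and 1.76 in CC075F1, and 0.694 and 0.899 in CC080F1. The two-sided exact permutation test gave p = 0.33, the smallest it can give with 2 sections per strain, so this test could not pass 0.05. With spots thinned to equal depth, CC080F1 replicate 2 stood at 1.03 for Serpina3f and 0.884 for Serpina3g. Border spots made up 20.3 to 21.0% of 3 sections and 31.6% of CC080F1 replicate 1, and their part in the ratios was not tested.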

How the results depend on the processing

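Of 369 values under alternatives, over 51 results, 285 stayed on the same side of the threshold, within the spread or, for counts of genes, within a fixed fold range of the main count. Where a value changed, the cause was not tested unless stated.

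Strain: genes called were 40 by library size alone, 480 without a filter on low counts, 194 with DESeq2 and 287 with the replicate block, where the members had 1.92, 1.56, -1.20 and -3.94 (Serpina3f, Serpina3g, Serpina3n, Serpina1b). The replicate numbers share only a number (correlation of deviations 0.165 over 15572 genes). By library size alone Serpina3g had 1.26. Other serpins called were 3 without the filter, 1 with DESeq2 and 1 with the block. Leaving out 1 section gave 1.33 to 2.54 for Serpina3f, 1.33 to 1.79 for Serpina3g, -2.66 to 0.32 for Serpina3n, -4.78 to -3.26 for Serpina1b, 11 to 207 genes and 0 to 2 other serpins.

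Interferon classes: genes called were 777 with DESeq2, 619 with the type I list and 432 with the thinned list, where Serpina3n had 0.52. Leaving out 1 section gave 335 to 1633 genes.

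T cell classes: Serpina3f had 0.81 with DESeq2 (adjusted p = 0.115) and 0.38 with the cytotoxic list (0.296), and Serpina3n 1.15 (0.074) and 0.52 (0.151). Genes called were 352 at 5000 UMIs, 996 without the filter and 158 with DESeq2. Leaving out 1 section gave 0.79 to 1.01 for Serpina3f, 0.79 to 1.58 for Serpina3n and 214 to 907 genes.

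Both classes in one fit: with the thinned interferon list, which holds fewer UMIs by construction, the differences were -0.038 (Serpina3f) and -0.082 (Serpina3g), the interferon value of Serpina3n 0.42, the T cell value of Serpina3f 0.83, and genes called 264, 1062 and 40 (interferon, T cell, difference). Without the filter Serpina3f had 0.60 for T cells, with 522 and 451 genes (T cell, difference). At 5000 UMIs the Serpina3f difference was 1.21 (adjusted p = 0.086), with 1333 and 141 genes (interferon, difference). Serpina3n had 0.95 for T cells at 20000 UMIs, and its difference was 0.44 at 20000 UMIs, 0.0093 by library size alone and 0.10 with DESeq2, which called 89 genes for T cells. Leaving out 1 section gave 0.54 to 0.69, 0.40 to 0.50 and 0.61 to 1.35 for T cells and 0.99 to 1.47, 0.998 to 1.498 and -0.34 to 0.64 for the difference (Serpina3f, Serpina3g, Serpina3n), with 1300 to 2312, 36 to 303 and 124 to 249 genes.

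Correlations with the interferon list were 0.072, 0.138 and 0.026 with the thinned list, 0.316, 0.586 and 0.148 over neighbours and 0.224, 0.449 and 0.083 at 20000 UMIs (Serpina3f, Serpina3g, Serpina3n), 0.233 for Serpina3g at 5000 UMIs, and 0.079 for Serpina3n over neighbours with the thinned list, a setting chosen after seeing the data. With T cells over neighbours they were 0.163 and 0.325 (Serpina3f, Serpina3g). At 20000 UMIs the strain ratio of Serpina3f was 1.91 at a score from 25 and 1.81 from 45. Ratios of the share of positive spots were 4.68 for Serpina3f and 2.62 for Serpina3g at 2 UMIs, and 2.03 for Serpina3g in thinned spots. With about 1 UMI of the T cell list or fewer per thinned spot, depth limits what the T cell values can show.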
